A study of Mus musculus with 6 samples.

Results

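The genes described here are 6 of the 30281 gene symbols in the deposited table: *Txnip*, *Arrdc3*, *Arrdc4*, *Mlxip*, *Mlxipl* and *Mlx*. They were chosen by symbol as the glucose-responsive transcription factors of the Mondo family with their partner, and the arrestin-domain proteins linked to them. Together they are listed as 32 transcripts.

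RNA-Seq was performed on 6 mouse samples, 1 library per condition. Mouse embryo fibroblasts (MEFs) were *Tsc2*-/- or *Tsc2*+/+, and both were also p53-/-. MKOC and TJ cells are kidney epithelial lines labelled *Tsc2*-null, and TJ cells are labelled as derived from a secondary tumor in C57BL6 mice. Each kidney line was either left untreated or given 100 nM rapamycin, an inhibitor of mTORC1, for 18 hr. The treatment was in serum-free medium with BSA, and the MEFs are labelled as untreated. No animal age and no wild-type kidney line are given. Each line is a single line, so a genotype or an origin cannot be told apart from the line that carries it.

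MondoA (encoded by *Mlxip*) and ChREBP (encoded by *Mlxipl*) are basic helix-loop-helix transcription factors that respond to glucose-6-phosphate, the first product of glucose inside the cell. Either one pairs with Mlx to bind DNA, at paired E-boxes known as carbohydrate response elements. *Txnip* and *Arrdc4* are well-known direct targets, and their products limit glucose uptake, so the pathway is known as a negative feedback on glucose entry. mTOR, the kinase that rapamycin inhibits and that the Tsc2 protein holds in check, is a known binding partner of MondoA.

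Promoter sequences of *Txnip* and *Arrdc4* are shown because both genes are known targets and only the first passed the rapamycin test. They are the 250 bases before the RefSeq start site in GRCm38.p6, written 5′ to 3′ on the strand of the gene. The *Txnip* stretch is chr3:96557707-96557956 on the plus strand, and the *Arrdc4* stretch is chr7:68749239-68749488 on the minus strand. Capitals mark CACGTG and CACGAG on either strand.
Txnip: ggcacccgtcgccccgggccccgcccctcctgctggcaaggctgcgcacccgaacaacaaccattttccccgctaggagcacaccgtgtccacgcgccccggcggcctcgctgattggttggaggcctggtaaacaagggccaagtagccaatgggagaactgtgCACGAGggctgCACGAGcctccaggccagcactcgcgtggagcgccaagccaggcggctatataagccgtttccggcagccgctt
Arrdc4: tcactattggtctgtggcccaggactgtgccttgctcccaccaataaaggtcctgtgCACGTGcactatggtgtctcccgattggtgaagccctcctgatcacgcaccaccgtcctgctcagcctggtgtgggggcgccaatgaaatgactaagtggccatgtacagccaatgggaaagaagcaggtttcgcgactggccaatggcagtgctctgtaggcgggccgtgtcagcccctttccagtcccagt

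The *Txnip* stretch held CACGAG 2 times on the same strand, starting 85 and 74 bases before the start site. The copies lay 5 bases apart, so that together they matched the longer pattern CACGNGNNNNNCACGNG, in which N is any base. That pattern was found on either strand in 16 of 32851 RefSeq promoter windows of 300 bases (0.0487%), and among the windows of the 6 genes only in that of *Txnip*. The *Arrdc4* stretch held no such pair but 1 CACGTG, starting 193 bases before the start site. A CACGTG was also found in the window of *Mlx*, 40 bases before its start site, and in 1 of the 2 windows of *Mlxipl*, and 7.15% of all windows held one. The window of *Arrdc4* had 6 copies of CCAAT counted over both strands. At least 3 copies of CCAAT were found in 3.37% of all windows. The longer pattern covers only pairs with both copies in the same orientation, so other arrangements were not counted. These matches describe the letters in the windows and do not show what bound there. Whether they bear on the different rapamycin calls of *Txnip* and *Arrdc4* was not tested.

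Total estimated counts of the libraries, over transcripts with a symbol, were between 22798501 and 37365539. Levels are given as TPM, a unit that corrects for transcript length and library size, or as CPM, counts scaled to the same total in every library. Intervals given with them are 95% Wilson intervals, and those of CPM ratios are exact conditional intervals. Both cover counting error only. *Tsc2* itself was at 22.6 TPM in the *Tsc2*+/+ library and at 10.5 TPM in the *Tsc2*-/- library. In the lines labelled *Tsc2*-null it was at 49.1 TPM in untreated MKOC cells and 44.0 TPM in untreated TJ cells, with 19.5 and 19.1 TPM after rapamycin. *Tsc2* RNA was therefore present in every library, also in those labelled null, and sums per transcript do not tell whether reads came from deleted exons. Of 8 fibroblast markers, 7 or 8 reached 1 TPM in the MEFs and 1 or 2 in the kidney lines. Of 6 kidney epithelial markers, 5 reached 1 TPM in every kidney library and 1 in either MEF library. *Lhx1* was at 0 in the kidney lines, and of the general epithelial markers *Epcam* was at or near 0 there. The mesothelial marker *Upk3b* was at 154 TPM in *Tsc2*-/- MEFs and at 0 in *Tsc2*+/+ MEFs, so these libraries differed in more than the *Tsc2* label.

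Of the 3 arrestin-domain genes, *Txnip* and *Arrdc4* were most abundant in *Tsc2*-/- MEFs and *Arrdc3* in untreated TJ cells. *Txnip*, on chromosome 3 (96557957 to 96561883, plus strand, GRCm38), encodes a protein that binds thioredoxin and promotes removal of glucose transporters from the cell surface. It was at 13.0 TPM in *Tsc2*+/+ MEFs, 35.4 in *Tsc2*-/- MEFs, 14.2 in untreated MKOC, 24.9 in rapamycin-treated MKOC, 17.3 in untreated TJ and 23.5 in rapamycin-treated TJ cells. *Tsc2*-/- MEFs were highest, and both treated kidney libraries stood above both untreated ones. *Tsc2*+/+ MEFs were lowest in TPM, whereas in CPM untreated MKOC cells were lowest, at 24.5 against 28.9 in *Tsc2*+/+ MEFs. The intervals of *Tsc2*+/+ MEFs (12.3 to 13.8) and untreated MKOC cells (13.2 to 15.3) overlapped, and so did those of the treated MKOC and TJ libraries.

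*Arrdc3*, on chromosome 13 (80883384 to 80896042, plus strand), encodes an arrestin-domain protein that brings ubiquitin ligases of the NEDD4 family to cell surface receptors. It was at 4.48 TPM in *Tsc2*+/+ MEFs, 7.79 in *Tsc2*-/- MEFs, 12.7 in untreated MKOC, 15.5 in treated MKOC, 20.3 in untreated TJ and 17.7 in treated TJ cells. All kidney libraries were above both MEF libraries, and the share of all genes with such a separation was not counted.

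*Arrdc4*, on chromosome 7 (68736995 to 68749241, minus strand), encodes a relative of Txnip that also promotes glucose transporter removal. It had 0 counts in *Tsc2*+/+ MEFs, the deepest library, and 18.4 TPM in *Tsc2*-/- MEFs. The kidney libraries were between these, at 8.43 TPM in untreated MKOC, 7.51 in treated MKOC, 6.98 in untreated TJ and 4.76 in treated TJ cells. The absence in *Tsc2*+/+ MEFs covered all 3 listed transcripts, and 0 of 37365539 counts allows a level of up to 0.0803 CPM, from 3 counts.

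Among the factors, *Mlx* (chromosome 11, 101087277 to 101092207, plus strand), the shared partner, had the highest summed TPM of the 6 genes in every library. In estimated counts it was below *Mlxip* in both MEF libraries, at 2138 against 2501 in *Tsc2*+/+ and 1458 against 1780 in *Tsc2*-/- MEFs. It was at 67.7 TPM in *Tsc2*+/+ MEFs, 93.3 in *Tsc2*-/- MEFs, 52.6 in untreated MKOC, 37.7 in treated MKOC, 75.1 in untreated TJ and 42.7 in treated TJ cells. Both treated kidney libraries were lower than every untreated library of the series. *Mlxip* (chromosome 5, 123394798 to 123457932, plus strand) was at 11.8 TPM in *Tsc2*+/+ MEFs, 16.4 in *Tsc2*-/- MEFs, 7.71 in untreated MKOC, 9.52 in treated MKOC, 6.84 in untreated TJ and 7.39 in treated TJ cells. Both MEF libraries were above all kidney libraries. How many of all genes separate the libraries as *Txnip*, *Mlx* and *Mlxip* did was not counted either. *Mlxipl* (chromosome 5, 135089890 to 135138382, plus strand) was close to the limit of detection, with 32 counts and 0.790 TPM in *Tsc2*-/- MEFs and between 1 and 4 counts in the other 5 libraries. *Mlxip* was thus the only one of the glucose-responsive factors above 1 TPM in any library.

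**Figure D1:**
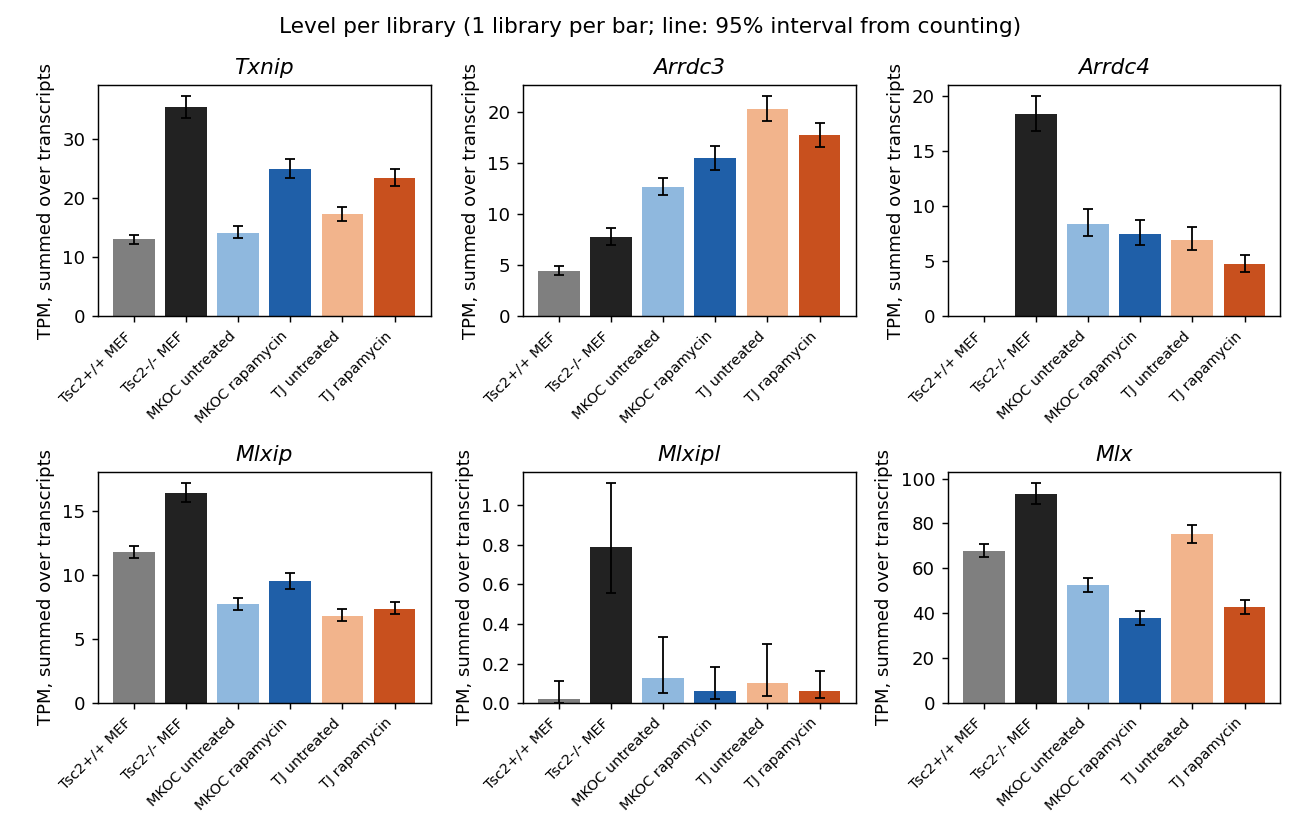
TPM of the 6 genes (vertical axes, each starting at 0) in the 6 libraries (bars, 1 library each), with 95% intervals from counting. *Arrdc4* is at 0 in *Tsc2*+/+ MEFs and 18.4 in *Tsc2*-/- MEFs, *Txnip* is higher and *Mlx* lower in each treated kidney library than in its untreated partner, and *Mlxipl* stays under 1 TPM.

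Sums per gene combine transcripts that differ in length, and a short transcript needs few counts for a high TPM. *Txnip* counts were divided between Txnip-201 (396 codons) and Txnip-202 (397 codons), both protein-coding with 8 exons. Txnip-202 held between 51.8% and 63.1% of the counts. The deposited estimates cannot show how well reads distinguished such similar transcripts. With rapamycin both were higher in both lines, Txnip-201 at 6.71 and 10.1 TPM in untreated and treated MKOC cells and 6.45 and 8.42 TPM in TJ cells. Txnip-202 was at 7.15 and 13.5 TPM in MKOC cells and 10.4 and 14.3 TPM in TJ cells.

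*Mlx* counts were mostly on protein-coding transcripts, of which Mlx-202 (244 codons) held between 43.9% and 57.9%. Mlx-202 was at 16.3 and 10.9 TPM in untreated and treated MKOC cells and at 19.5 and 13.6 TPM in TJ cells. Mlx-201, which encodes the longest form (298 codons), was at 8.58 and 3.37 TPM in MKOC cells and at 9.47 and 4.22 TPM in TJ cells. These coding transcripts were both lower with rapamycin in both lines. Of the other coding transcripts, Mlx-203 was at 1.13 and 1.14 TPM in MKOC and 2.43 and 0.896 TPM in TJ cells, and Mlx-207 at 1.20 and 0.437 TPM in MKOC and 0 and 0.582 TPM in TJ cells. Mlx-206, a processed transcript of 679 bases, was at 10.8 and 11.2 TPM in MKOC cells and at 21.4 and 9.06 TPM in TJ cells, lower in TJ cells alone. Mlx-204, a processed transcript of 618 bases, was at 14.7 and 10.7 TPM in MKOC and 22.4 and 13.7 TPM in TJ cells. Of the summed *Mlx* TPM, Mlx-204 held 25.4% to 32.1% and Mlx-206 20.5% to 29.6%, so the sum held much TPM without a coding region.

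*Arrdc4* was divided unevenly. Arrdc4-201, the full-length coding transcript of 3855 bases and 415 codons, held 86.2% of the counts in *Tsc2*-/- MEFs and between 52.7% and 72.2% in the kidney lines. A transcript of 619 bases that is not in GENCODE M21 held 12.9% of the counts but 54.5% of the TPM in *Tsc2*-/- MEFs. Counted on Arrdc4-201 alone, the level was 8.0 TPM in *Tsc2*-/- MEFs and between 1.31 and 1.98 TPM in the kidney lines. *Arrdc3* counts were mostly on Arrdc3-201 (414 codons), with 94.3% in *Tsc2*+/+ MEFs and 67.2% in *Tsc2*-/- MEFs. Arrdc3-201 was at 3.50 and 3.85 TPM in these libraries, so the summed *Arrdc3* level in *Tsc2*-/- MEFs held a larger part of other transcripts. *Mlxip* counts were on Mlxip-201 (917 codons) for 85.4% to 99.3%.

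**Figure D2:**
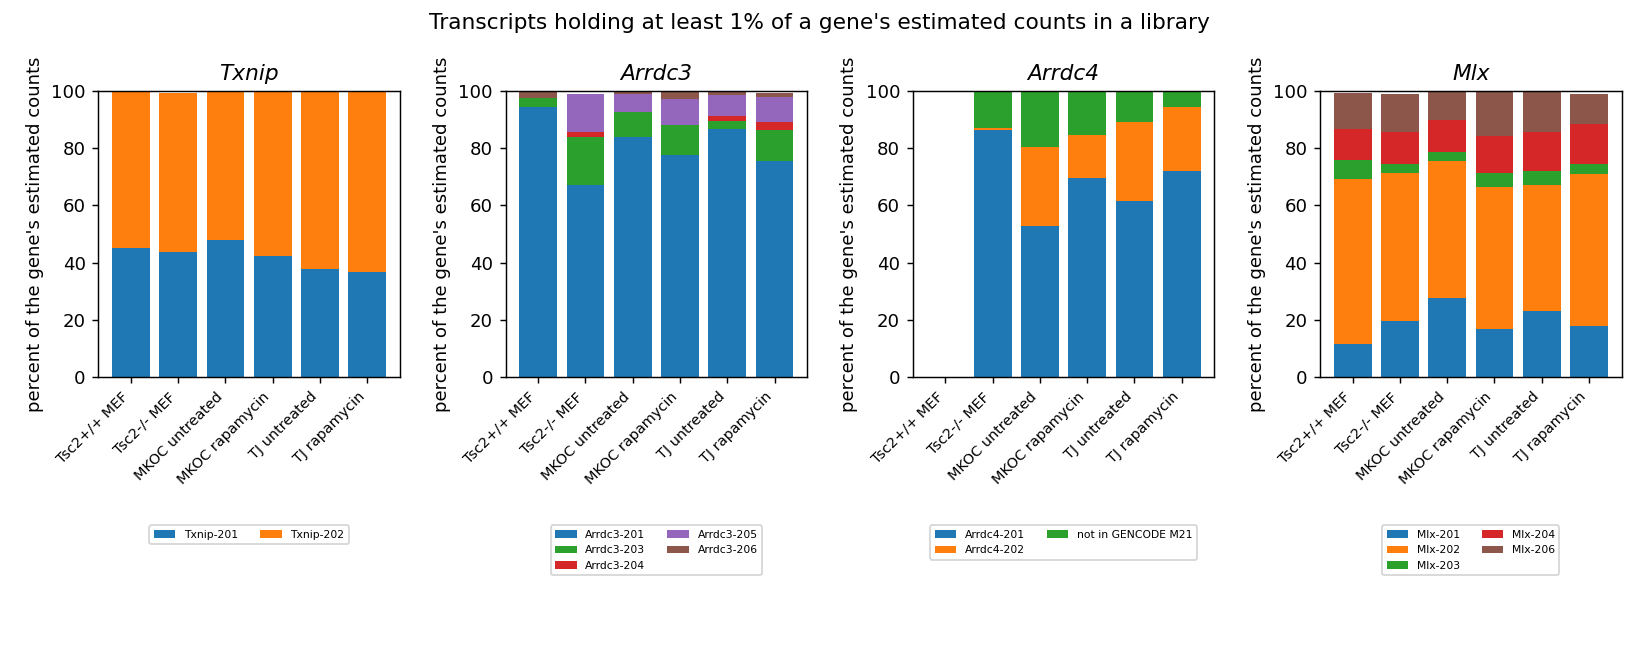
Share of the estimated counts of *Txnip*, *Arrdc3*, *Arrdc4* and *Mlx* (vertical axes, percent) on each listed transcript (colors), by library (bars). Transcripts under 1% in every library are left out, and *Arrdc4* has no bar in *Tsc2*+/+ MEFs, where it has 0 counts. The *Txnip* split varies little, whereas Arrdc4-201 holds 86.2% in *Tsc2*-/- MEFs and 52.7% in untreated MKOC cells.

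For *Tsc2*-/- against *Tsc2*+/+ MEFs, the comparison asks how these RNAs differ between the MEF libraries of these labels. There is 1 library for each, so no difference has a replicate check or a p-value. All 6 genes were higher in *Tsc2*-/- MEFs, and 2 of them, *Txnip* and *Arrdc4*, by at least 2-fold with 1 added to each TPM value. Of all 30281 genes 12.8% passed this threshold in either direction. Of the 12771 genes with at least 1 TPM in either library 30.4% did so, and 25.2% passed it as higher. The median log2 fold of the latter genes was 0.45, so most genes were higher in TPM in *Tsc2*-/- MEFs. Transcripts under 300 bases took 20.9% of TPM in *Tsc2*+/+ MEFs and 7.12% in *Tsc2*-/- MEFs. With these transcripts left out and TPM rescaled, 3422 genes passed 2-fold in place of 3884. The log2 fold of *Txnip* was then 1.16 in place of 1.37, that of *Arrdc3* 0.49 in place of 0.68, that of *Mlxip* 0.23 in place of 0.45 and that of *Mlx* 0.23 in place of 0.46.

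*Txnip* was 2.59-fold higher in TPM with 1 added, and 1.98-fold higher in CPM (interval 1.82 to 2.14). Scaled to a median ratio of 1, its log2 fold was 0.995, just under the 2-fold threshold, and with CPM and 1 added it was 0.96. *Arrdc4* had 528 counts against 0. Against a floor of 3 counts per library it was at least 275-fold higher in CPM, and the exact conditional interval of its CPM ratio starts lower, at 223. It passed 2-fold under each setting tried. *Arrdc3* was 1.60-fold higher in TPM and 1.18-fold in CPM (interval 1.03 to 1.36).

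The factors differed less. *Mlxip* was 1.36-fold and *Mlx* 1.37-fold higher in TPM with 1 added, close to the median of all genes. In CPM they were 1.11-fold (interval 1.05 to 1.18) and 1.07-fold (interval 0.997 to 1.14) higher. *Mlxipl* had 1 count in *Tsc2*+/+ MEFs and 32 in *Tsc2*-/- MEFs, a CPM ratio of 50.1 with an interval of 8.36 to 2037.

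Other genes of the pathway were read against the 25.2% of all genes that passed 2-fold as higher. Of 18 listed carbohydrate-response targets 13 reached 1 TPM in either library, and 5 were at least 2-fold higher and 0 at least 2-fold lower, with a median log2 fold of 0.85 beside 0.45 for all genes. *Klf10*, a transcriptional repressor and known target of these factors, was at 2.99 TPM in *Tsc2*+/+ and 16.1 TPM in *Tsc2*-/- MEFs. *Fgf21*, a hormone of fasting and sugar intake, was at 3.76 and 31.6 TPM. For glucose entry and glucose-6-phosphate, 4 of the 7 genes that reached 1 TPM were at least 2-fold higher, with a median log2 fold of 1.02. *Hk2*, the hexokinase that makes glucose-6-phosphate, was at 10.3 and 41.4 TPM. *Slc2a1*, the glucose transporter whose removal Txnip promotes, was at 55.3 and 127.5 TPM. *Slc2a3*, another glucose transporter, was at 0.0432 and 50.6 TPM. On CPM with 1 added fewer of these genes passed, as did fewer of all genes (17.2% as higher, median log2 fold 0.11). Of the 13 targets 3 were then higher and 1 lower (*Acacb*, an acetyl-CoA carboxylase), with a median of 0.51, and of the 7 glucose entry genes only *Hk2* and *Slc2a3* passed, with a median of 0.59.

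*Txnip* and its transporter target were thus both higher in *Tsc2*-/- MEFs. In the other lists, the counts of the thioredoxin system, the MYC-MAX network and the other arrestins were near the share of 25.2% among all genes, and their median log2 folds of 0.30, 0.22 and 0.17 were below the 0.45 of all genes. In the thioredoxin system 4 of 12 genes were at least 2-fold higher, led by the reductase *Txnrd1* at 65.7 and 221 TPM, while *Txn1*, the thioredoxin that Txnip binds, was at 434 and 432 TPM. In the MYC-MAX network, whose proteins bind E-boxes as Mlx does, 3 of 10 genes were at least 2-fold higher, among them *Mycn* at 0.0408 and 8.16 TPM. *Myc* itself was at 127 and 76.5 TPM and *Max*, its partner, at 35.3 and 46.8 TPM. Of 8 ubiquitin ligases with WW domains, the domains that arrestin-domain proteins bind, 1 was at least 2-fold higher (*Hecw2*, 0.0338 and 3.52 TPM), with a median of 0.041 over the list. Of 6 AMPK subunits, a kinase that phosphorylates Txnip, 3 were at least 2-fold higher, with *Prkag1* at 27.3 and 86.4 TPM and a median of 1.10. Of 4 other arrestins 1 was at least 2-fold higher, *Arrb1* at 0.0638 and 11.1 TPM. On CPM with 1 added, 2 genes of the thioredoxin system, 1 other arrestin and 4 AMPK subunits were higher and 0 lower. Of the MYC-MAX network 2 were then higher and 1 lower (*Myc*), and of the ubiquitin ligases 1 higher and 2 lower (*Wwp2* and *Smurf1*).

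For rapamycin against untreated kidney lines, *Txnip* rose and *Mlx* fell. The 2 lines served as replicates, with the line as a covariate in edgeR's quasi-likelihood test and Benjamini-Hochberg adjustment over 12952 genes. The call was made at an adjusted p under 0.05, and 2 of the 5 members tested passed. Of all genes tested 34.9% passed, 17.5% as higher and 17.4% as lower, so the members' count was close to the share among all genes. *Txnip* rose by a log2 change of 0.59 ± 0.12 (SE, 1.51-fold, adjusted p = 0.00488). Its CPM ratio was 1.74 (interval 1.58 to 1.92) in MKOC and 1.38 (interval 1.26 to 1.51) in TJ cells. *Mlx* had a log2 change of -0.72 ± 0.11 (SE, 0.607-fold, adjusted p = 0.00114). Its CPM ratio was 0.659 (interval 0.594 to 0.730) in MKOC and 0.591 (interval 0.540 to 0.646) in TJ cells.

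The other members did not pass the test. *Mlxip*, which encodes the factor that pairs with Mlx, had a log2 change of 0.18 ± 0.11 (adjusted p = 0.232), with CPM ratios of 1.21 in MKOC and 1.12 in TJ cells. *Arrdc3* had -0.14 ± 0.13 (adjusted p = 0.437). It was higher in treated MKOC cells, with a CPM ratio of 1.07 (interval 0.965 to 1.18), and lower in treated TJ cells, with 0.819 (interval 0.748 to 0.898). *Arrdc4* had -0.018 ± 0.21 (adjusted p = 0.957), so that the known targets *Txnip* and *Arrdc4* did not have the same call. Its direction in MKOC cells differed between scales, with a CPM ratio of 1.16 (interval 0.937 to 1.45) and a TPM of 8.43 untreated and 7.51 treated. It also differed between transcripts. The full-length Arrdc4-201 was at 1.31 and 1.98 TPM in untreated and treated MKOC cells and 1.57 and 1.59 TPM in TJ cells. Arrdc4-202 was lower with rapamycin, at 2.96 and 1.84 TPM in MKOC and 3.06 and 2.09 TPM in TJ cells. The transcript of 619 bases was also lower in both lines. *Mlxipl* had too few counts to enter the test.

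The calls of *Txnip* and *Mlx* rested on the pairing. Without the line in the model, the adjusted p was 0.0645 for *Txnip* and 0.0606 for *Mlx*, and 1275 of 12952 genes passed in place of 4526. With limma on log2(TPM + 1) over all genes 0 genes passed, with 4981 at an unadjusted p under 0.05, and *Txnip* had an adjusted p of 0.123 and *Mlx* of 0.0958. With 3 libraries the line cannot be kept in the model, so fits without 1 library also drop the pairing, and the part of the missing library cannot be told apart from that. Without treated MKOC the adjusted p of *Txnip* was 0.143, without untreated MKOC 0.313, without treated TJ 0.113 and without untreated TJ 0.164. Those of *Mlx* were 0.141, 0.111, 0.0819 and 0.253 in the same order. The direction of both genes was the same in each of these fits. Markers also moved with the treatment: the summed TPM of 6 epithelial markers was 952 and 968 in untreated and 1492 and 1636 in treated cells, that of 8 fibroblast markers 26.4 and 7.66 against 51.7 and 13.2, and that of 4 mesothelial markers 80.1 and 69.6 against 151 and 97.7. The epithelial sum was mostly the keratins *Krt8* and *Krt18*, which rose by 0.79 and 0.78. *Cldn4* rose as well (0.31), and *Cdh1* did not pass (0.15, adjusted p = 0.271). Of 5 kidney epithelial markers tested 1 rose, *Cdh16* (0.37, adjusted p = 0.0226), and of 2 macrophage markers 1, *Csf1r* (0.45, adjusted p = 0.0179), with *Cd68* at -0.56 (adjusted p = 0.0967) and *Ptprc* and *Adgre1* at most at 0.0423 TPM. The fibroblast sum was mostly *Dcn*, a matrix proteoglycan, at 25.5 and 50.3 TPM in MKOC and 6.73 and 10.5 TPM in TJ cells. Of the 6 fibroblast markers tested 2 rose, *Dcn* (log2 change 0.82, adjusted p = 0.00135) and the collagen *Col3a1* (1.53, adjusted p = 0.0425, at most 1.07 TPM), and 0 fell. The other 4 did not pass, with *Col1a2* at 0.57, *Col1a1* at 0.35, *Pdgfrb* at -0.12 and *Pdgfra* at -0.90. The mesothelial sum was mostly *Msln*, which rose (0.70, adjusted p = 0.00168) and was at 79.9 and 150.4 TPM in MKOC and 69.5 and 97.6 TPM in TJ cells. *Upk3b* and *Wt1* of the same list were at most at 0.118 TPM in the kidney lines. The part of these shifts in the result was not tested.

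**Figure D3:**
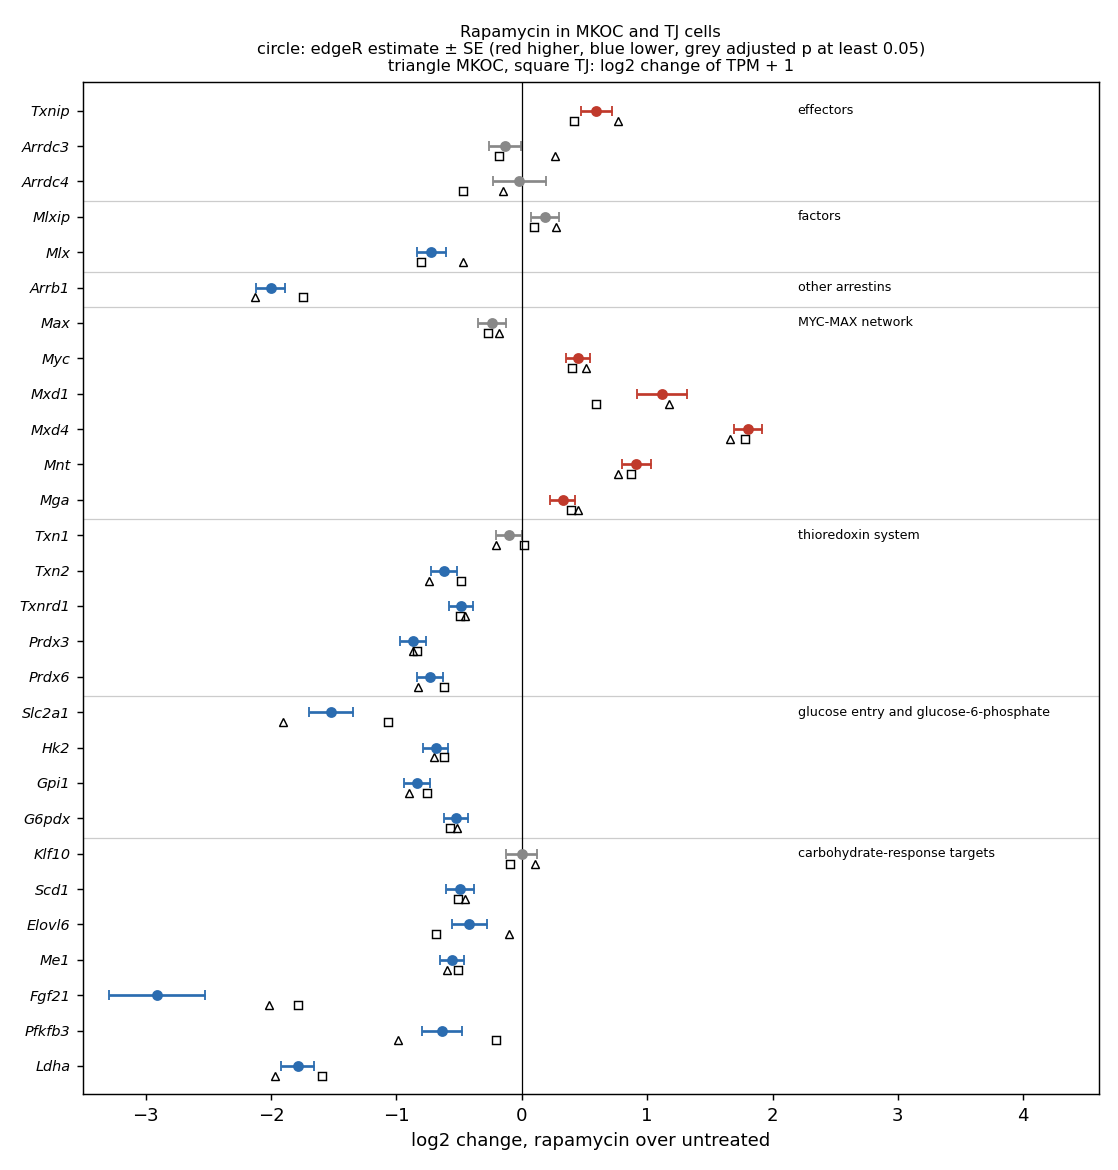
Log2 change with rapamycin (horizontal axis) of the members tested, of genes of 5 related lists that passed the test and of 6 genes shown regardless. Circles are edgeR estimates ± SE over both kidney lines, red where higher, blue where lower and grey where the adjusted p was at least 0.05, with the log2 change of TPM + 1 in MKOC (triangles) and TJ (squares) beneath. *Txnip* lies at 0.59 and *Mlx* at -0.72, with *Slc2a1* and *Ldha* further to the left and *Mxd4* furthest to the right.

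Of the 8 genes tested on the list of glucose entry and glucose-6-phosphate, 4 fell and 0 rose with rapamycin, with a median log2 change of -0.53 beside 0.015 over all genes. *Slc2a1* was at 82.8 TPM in untreated and 21.4 in treated MKOC cells, and at 79.0 and 37.2 in TJ cells, and its log2 change was -1.52 ± 0.17 (adjusted p = 0.000175). *Hk2* was at 40.8 and 24.8 TPM in MKOC and 43.9 and 28.2 TPM in TJ cells, with a log2 change of -0.69 ± 0.099 (adjusted p = 0.000674). *Gpi1*, which converts glucose-6-phosphate to fructose-6-phosphate, and *G6pdx*, which commits it to the pentose phosphate pathway, fell as well, with log2 changes of -0.84 and -0.53. The other 4 did not pass: *Slc2a3* (-0.52, adjusted p = 0.356), *Hk1* (-0.33, adjusted p = 0.0603), *Slc5a1* (0.17, adjusted p = 0.863) and *G6pc3* (0.29, adjusted p = 0.104). *Txnip* and the transporter *Slc2a1* therefore moved in opposite directions with rapamycin, whereas both were higher in *Tsc2*-/- MEFs.

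Of 16 carbohydrate-response targets tested 7 fell and 0 rose, with a median log2 change of -0.21. *Hk2* is on both lists. The largest change was that of *Fgf21*, at 5.47 and 0.600 TPM in MKOC and 5.26 and 0.813 TPM in TJ cells (log2 change -2.91 ± 0.38). *Ldha*, which makes lactate from pyruvate, had a log2 change of -1.79 ± 0.13, and *Pfkfb3*, which sets the level of an activator of glycolysis, -0.64 ± 0.16. *Klf10* was at 11.5 and 12.5 TPM in MKOC and 13.1 and 12.3 TPM in TJ cells and did not pass (log2 change -0.0015 ± 0.13, adjusted p = 0.994). Thus *Txnip* rose where 7 of the other listed targets fell and *Arrdc4* and *Klf10* did not pass. These targets are also known to answer to other factors.

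In the MYC-MAX network 5 of 8 genes tested rose and 0 fell, with a median log2 change of 0.44. *Mxd4* and *Mxd1*, which pair with Max and repress E-box genes, had log2 changes of 1.80 ± 0.11 and 1.12 ± 0.20. *Mnt*, which is known to pair with Max and with Mlx, rose by 0.91 ± 0.12. It was at 6.61 and 11.9 TPM in MKOC and at 7.16 and 14.0 TPM in TJ cells, in the opposite direction to *Mlx* in both lines. *Myc* rose by 0.45 ± 0.097 (adjusted p = 0.00591), and *Max* had -0.24 ± 0.11 (adjusted p = 0.118).

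In the thioredoxin system 4 of 12 genes fell and 0 rose: *Prdx3* (-0.87), *Prdx6* (-0.73), *Txn2* (-0.62) and *Txnrd1* (-0.49), peroxidases, the mitochondrial thioredoxin and the cytosolic reductase. *Txn1*, the cytosolic thioredoxin, had -0.10 ± 0.10 (adjusted p = 0.473). Of 4 other arrestins 1 fell, *Arrb1*, a beta-arrestin of G protein-coupled receptors, with a log2 change of -2.0 ± 0.12. It was at 20.8 and 4.0 TPM in MKOC and 34.3 and 9.52 TPM in TJ cells, a larger change than that of any member. Of 8 WW-domain ubiquitin ligases 1 fell (*Wwp1*, -0.33), and of 6 AMPK subunits 1 fell (*Prkaa2*, -0.82). DESeq2 called 3032 of 19780 genes. On the lists it called 0 of 9 ubiquitin ligases, 4 of 14 glucose entry genes and 6 of 17 carbohydrate-response targets. It called 4 of 10 in the MYC-MAX network and 4 of 12 in the thioredoxin system. Of other arrestins it called 1 of 5, and of AMPK subunits 1 of 7. Limma on log2(TPM + 1) called 0 of 19893 genes and so 0 on each of these lists.

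**Figure D4:**
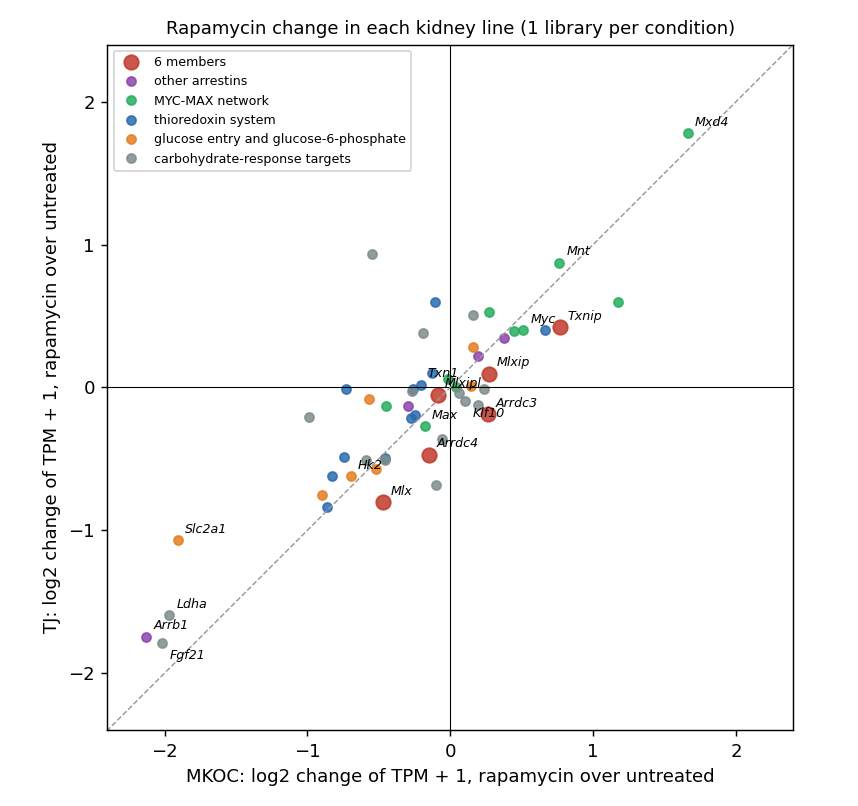
Log2 change of TPM + 1 with rapamycin in MKOC (horizontal axis) and TJ cells (vertical axis) for the 6 members (large red points) and for listed genes of at least 1 TPM in any library (small points, colored by list), with the line of equal change dashed. *Txnip* and *Mlx* lie in opposite quadrants, *Arrdc3* has 0.27 in MKOC and -0.19 in TJ cells, and *Slc2a1*, *Ldha*, *Arrb1* and *Fgf21* lie far to the lower left.

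For TJ against MKOC cells, tested with the treatment as a covariate, 0 of the 5 members tested passed, where 8.79% of all 12952 genes did. Each line is 1 line with 2 libraries, so the p-values measure only the spread between these. At an unadjusted p under 0.05 there were 2 members, *Mlx* (log2 difference 0.29 ± 0.11, adjusted p = 0.155) and *Mlxip* (-0.28 ± 0.11, adjusted p = 0.164). DESeq2 called 0 members and 603 of 19780 genes. Limma on log2(TPM + 1) called 0 members and 0 of 19893 genes. *Mlx* was higher in TJ cells at both treatments, at 75.1 against 52.6 TPM untreated and 42.7 against 37.7 TPM treated. *Mlxip* was lower in TJ cells at both, at 6.84 against 7.71 and 7.39 against 9.52 TPM. *Txnip* (0.092 ± 0.12), *Arrdc3* (0.20 ± 0.13) and *Arrdc4* (-0.18 ± 0.21) had adjusted p-values between 0.404 and 0.726. Untreated *Arrdc3* was higher in TJ cells, with a CPM ratio of 1.33 (interval 1.22 to 1.46), and with rapamycin the ratio was 1.02 (interval 0.924 to 1.13).

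Among carbohydrate-response targets, 4 of 16 were higher in TJ cells and 0 lower. *Pklr*, a pyruvate kinase, and *Gpd1*, which makes glycerol-3-phosphate, differed by log2 2.48 ± 0.48 and 1.14 ± 0.15. In MKOC cells *Pklr* had only 13 counts untreated and 5 treated, at 0.651 and 0.131 TPM. *Slc5a1*, a sodium-coupled glucose transporter, was the 1 gene of 8 on the glucose entry list that passed, on 17 counts in TJ against 3 in MKOC cells untreated and 25 against 0 treated, at most 0.351 TPM. Of the MYC-MAX network 1 of 8 was higher (*Mxd4*, 0.47), of the other arrestins 1 of 4 was higher (*Arrb1*, 0.87), and of the thioredoxin system 2 of 12 were lower (*Prdx4*, -0.47, and *Txnrd1*, -0.35). Of the ubiquitin ligases 1 of 8 was lower (*Smurf1*, -0.35), and of the AMPK subunits 1 of 6 was higher (*Prkaa2*, 0.55). DESeq2 called 603 of 19780 genes, among them 3 of 17 carbohydrate-response targets, 1 of 5 other arrestins and 1 of 7 AMPK subunits. It called 0 on the lists of glucose entry, the MYC-MAX network, the thioredoxin system and the ubiquitin ligases. Limma on log2(TPM + 1) called 0 of 19893 genes and so 0 on each of these lists.

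For untreated kidney lines against MEFs, 0 of the 5 members tested passed in edgeR, where 9.93% of 13473 genes did. Both MEF libraries entered the fit as 1 group, and they differ in *Tsc2*, so that cell type, line, medium and genotype cannot be told apart. The untreated kidney libraries are also those of the rapamycin comparison. *Arrdc3* was higher in the kidney lines by a log2 difference of 1.38 ± 0.28 (2.61-fold, adjusted p = 0.0582), and *Mlxip* lower by -1.02 ± 0.19 (0.492-fold, adjusted p = 0.0530). These were the members at an unadjusted p under 0.05. DESeq2 called both, with adjusted p-values of 0.000131 and 0.000194, in a fit that called 4214 of 20519 genes. Limma on log2(TPM + 1) called 0 members and 58 of 20641 genes. Each fit without 1 library sets a lone library against 2 and takes all of its spread from those 2. Without *Tsc2*-/- MEFs the adjusted p-values of *Arrdc3* and *Mlxip* were 0.00258 and 0.00301, and without *Tsc2*+/+ MEFs 0.00517 and 0.00342, in fits that called 7924 of 14122 and 6886 of 14427 genes. Without untreated MKOC or untreated TJ cells they were between 0.492 and 0.593.

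*Arrdc4* gave no single value in this comparison, since the kidney lines lay between the MEF libraries. Its log2 difference was -0.74 ± 2.37 (adjusted p = 0.852). Against *Tsc2*-/- MEFs alone it was lower in the kidney lines by a log2 difference of -1.72. Against *Tsc2*+/+ MEFs alone, with 0 counts there, it was higher in both. *Txnip* had -0.62 ± 0.38 (adjusted p = 0.329). Against *Tsc2*-/- MEFs alone the difference was -0.96, and against *Tsc2*+/+ MEFs alone it was -0.11. *Mlx* had -0.43 ± 0.22 (adjusted p = 0.262). *Mlxipl* had too few counts to enter the test.

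Other genes of the pathway passed one by one. *Ldha* was at 297 and 634 TPM in the MEFs and at 3486 and 3379 TPM in untreated MKOC and TJ cells, and with *Gpd1* and *Scd1*, a fatty acid desaturase, made up 3 of 15 carbohydrate-response targets that were higher in the kidney lines, with 0 lower. *Gpi1* was the 1 of 8 glucose entry genes that passed (log2 difference 1.46), and *Mxi1*, another partner of Max, the 1 of 9 in the MYC-MAX network (1.55). *Arrdc1*, an arrestin-domain protein of membrane vesicles, was the 1 of 4 other arrestins that passed (1.70), at 10.8 and 12.3 TPM in the MEFs and 38.6 and 39.7 TPM in the kidney lines. In the thioredoxin system 1 of 12 passed (*Prdx5*, 1.34), and of the AMPK subunits 1 of 6 (*Prkaa2*, 4.46). Of the 8 ubiquitin ligases 0 passed in edgeR, where *Smurf2*, *Itch* and *Wwp1* had unadjusted p-values of 0.00742, 0.0139 and 0.0136. These 3 were named after their values were seen. DESeq2 called 4214 of 20519 genes. On the lists it called 3 of 9 ligases, 5 of 17 carbohydrate-response targets and 3 of 14 glucose entry genes. It called 5 of 10 in the MYC-MAX network and 4 of 12 in the thioredoxin system. Of other arrestins it called 1 of 5, and of AMPK subunits 2 of 7. Limma on log2(TPM + 1) called 58 of 20641 genes and 0 on each of these lists.

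The genes closest in pattern were found from log2(TPM + 1) centred on its mean over the 6 libraries, by the root mean square difference over 10115 genes of at least 10 TPM in any library. For *Txnip* they were *Cyb5d1* (0.083), *Specc1* (0.090) and *Pld2* (0.10), each highest in *Tsc2*-/- MEFs and higher in treated than in untreated kidney cells. For *Arrdc3* they were *Lcor* (0.14), *Ubxn2a* (0.14) and *Tmcc3* (0.15). For *Arrdc4* they were *Gulp1* (0.17), *Arnt2* (0.25) and *Slc40a1* (0.25), all under 1 TPM in *Tsc2*+/+ MEFs and above 20 TPM in *Tsc2*-/- MEFs. For *Mlxip* they were *Golga3* (0.055), *Acvr1* (0.059) and 9130011E15Rik (0.065), and for *Mlx* they were *Stk39* (0.13), *Atp6v1h* (0.13) and *Slc31a1* (0.14). *Mlxipl* was under 10 TPM in every library and did not enter. The other 5 members were not close to each other: the smallest difference between any pair of them was 0.41, between *Mlxip* and *Mlx*, and that between *Txnip* and *Arrdc4* was 1.04. With 6 libraries and several lines, such closeness is a description.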

How the data were processed

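RNA-Seq libraries were prepared by the authors with a stranded poly(A) kit, and reads were trimmed with Trimmomatic and quantified with Kallisto (version not given in the sources used here). A human transcriptome is given in the methods as reference, whereas identifiers in the table are Ensembl mouse ones. Deposited by the authors were estimated counts and TPM for 88198 transcripts. The deposited fold change per transcript, a ratio of the MEF libraries, was used only for its gene symbols. Transcript lengths and effective lengths were also deposited.

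Counts and TPM were summed per symbol, and 1006 transcripts with no symbol, which held 0.372% to 0.468% of the estimated counts, were left out. Depth was 22798501 to 37365539 estimated counts. Kallisto divides reads between similar transcripts, so sums per gene depend less on that division than single transcripts. Positions are from GENCODE M21 (GRCm38), and promoters are from RefSeq (GRCm38.p6), where all 6 genes were found. 

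MEFs were compared by the fold of TPM + 1, called at 2-fold. The other comparisons rounded the estimated counts to whole numbers and used filterByExpr, TMM and quasi-likelihood fits in edgeR. P-values were adjusted over all genes (Benjamini-Hochberg) and called under 0.05. SE is the log2 change divided by the square root of its F statistic. Rapamycin was paired by cell line as named in the labels, and same-line libraries deviated together from their treatment means (r = 0.562 across 12952 genes). No source says that libraries came from separate cultures, so p-values measure only the spread between these libraries. Alternatives were other pseudocounts, scalings, filters and thresholds, DESeq2, limma and leaving out each library. The edgeR step was also run on simulated counts without a difference between lines, and that outcome is not reported here. The members and lists were chosen with earlier results of these data known. Named genes are the 6 members, at most 4 genes past the threshold per list with the largest changes first, and *Max*, *Myc*, *Txn1*, *Slc2a1*, *Hk2* and *Klf10*. Outside this rule, and after their values were seen, *Slc2a3*, *Hk1*, *Slc5a1* and *G6pc3* were named for rapamycin, *Acacb*, *Wwp2* and *Smurf1* for MEFs, *Smurf2*, *Itch* and *Wwp1* for kidney lines against MEFs, and single markers. Tests were run in R 4.3.3 with DESeq2 1.42.0, edgeR 4.0.16 and limma 3.58.1. Tables and figures were made in Python 3.11.15 with scipy 1.17.1, pandas 2.3.3, numpy 2.4.6 and matplotlib 3.10.9.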

Additional observations from a re-analysis of the deposited data

Results flagged for a closer look

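*Arrdc3*, *Txn1* and *Klf10* had rapamycin changes of opposite direction in the kidney lines, with 1 library per condition in each line, and these differences between the lines were not tested. The log2 change of TPM + 1 of *Arrdc3* was 0.266 in MKOC and -0.186 in TJ cells, for the sum over transcripts. Arrdc3-201, which held most counts, was at 9.35 and 9.06 TPM in untreated and treated MKOC and 12.9 and 8.97 TPM in TJ cells. The rise of the sum in MKOC cells thus lay on other transcripts. That of *Txn1* was -0.207 in MKOC and 0.0196 in TJ cells. That of *Klf10* was 0.105 in MKOC and -0.0922 in TJ cells. None of the 3 genes passed edgeR's test over both lines, with adjusted p-values of 0.437, 0.473 and 0.994.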

How the results depend on the processing

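In the MEFs 1 member passed 2-fold after scaling to a median ratio of 1 and 4 passed 1.5-fold, in place of 2. With 0.1 and with 0.5 added to each TPM value 3 passed, *Mlxipl* included (log2 fold 2.90 and 1.31). On CPM with 1 added 2 passed, *Arrdc4* and *Mlxipl* (log2 fold 1.19) in place of *Arrdc4* and *Txnip*. Over all genes the main count of 3884 became 6664 with 0.1 and 2139 with 5 added to each TPM value, and 7135 at 1.5-fold. With no replicate block, that is, without pairing by line, 0 members and 1275 genes were called for rapamycin. With limma on log2(TPM + 1) or log2(TPM + 0.1) over all genes 0 members and 0 genes were called. Leaving out 1 library, in fits that also hold no line, gave 0 members and 0 to 613 genes. DESeq2, other normalizations, no filter and limma on genes of at least 1 TPM gave 2 members. *Txnip* and *Mlx* kept their direction in all 14 alternatives each.

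*Arrdc3* had rapamycin changes of 0.040, 0.044 and 0.040 in the limma fits and between -0.33 and 0.27 with 1 library or line left out. *Arrdc4* had 0.016 with upper-quartile normalization, 0.020 with library totals only, and -0.47 to 0.17 with 1 library or line left out. For TJ over MKOC 0 members were called in every alternative run. The count of 1139 genes became 0 with no treatment in the model, 603 with DESeq2, 1753 with no filter, 0, 0 and 469 in the limma fits, and 0 to 107 with 1 library left out. The latter fits hold no treatment term, so their values mix the line with rapamycin. In these fits *Txnip* was between -0.28 and 0.49 and *Mlx* between -0.13 and 0.66. Within a single treatment, the log2 difference of TPM + 1 of *Txnip* was 0.268 in the untreated libraries and -0.083 in the treated ones, opposite directions.

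For kidney lines over MEFs DESeq2 called 2 members and 4214 of 20519 genes, in place of 0 members and 1338 of 13473 genes. The limma fits on log2(TPM + 1) and log2(TPM + 0.1) called 58 and 460 genes. Leaving out 1 library gave 0 to 5 members and 0 to 7924 genes. *Arrdc4* was at 0.98, 2.51 and 0.98 in the limma fits and between -1.72 and 10.6 with 1 library left out, a fitted value that is no bound since *Tsc2*+/+ MEFs had 0 counts. Causes of these changes were not tested. *Arrdc4* lies between the MEF libraries, and fits without 1 library have fewer samples. With 1 library per condition, a lone library was assumed to vary like the others, and depth limits *Mlxipl* most, with 1 to 4 counts in 5 libraries.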
